A study of Homo sapiens with 8 samples.

Results

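Mitochondrial ribosomal protein genes are the nuclear genes for the protein parts of the mitoribosome. They were taken as every protein-coding gene of the deposited expression table whose symbol starts with MRPL or MRPS and a digit, together with DAP3, and 77 of the 30233 genes qualified. The same name stems occur in 108 genes of the table, of which 31 were left out as pseudogenes, antisense genes or other non-coding genes. MRPS12 and MRPL53, which belong to the family by name, were not analysed here. The genes lie on 21 chromosomes, and 50 encode proteins of the large subunit and 26 proteins of the small subunit. The remaining one, MRPS36, carries the name but belongs to the 2-oxoglutarate dehydrogenase complex. RNA-seq was run on 8 libraries of THP-1, a human monocytic leukaemia line of unmodified genotype. All cells were first turned into macrophage-like cells with the phorbol ester PMA (24 h at 100 ng/ml), followed by 24 h in medium free of it. In 4 libraries they received LPS at 100 ng/mL, the lipopolysaccharide of bacterial outer membranes and a trigger of inflammatory gene expression. In the other 4 they received the same LPS dose and, at the same time per the treatment protocol, 5 mM 3-HPA (3-hydroxypropionic acid), whereas the series description speaks of pretreatment. Neither unstimulated cells nor 3-HPA alone entered the comparison, so every difference is between stimulated cells with and without the acid. How long LPS was present is not stated in the labels, and the series title frames the study as one of glycolysis giving way to mitochondrial oxidation.

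The mitoribosome translates the messenger RNAs of the mitochondrial genome, which encode core subunits of the respiratory chain and of ATP synthase. Its ribosomal RNAs are transcribed inside the organelle, whereas all of its proteins are encoded in the nucleus, made on cytosolic ribosomes and imported. Some of these proteins descend from bacterial ribosomal proteins, and others were added during the evolution of mitochondria and have no bacterial counterpart. Promoters of nuclear genes for mitochondrial proteins are known for binding sites of NRF1, of ETS factors such as GABP, and of YY1.

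Promoters of 4 of the genes are shown because they include the 2 called genes with the lowest fold change on the log2(FPKM + 1) scale (MRPL40 and MRPL17), the single called rise (MRPS6), and the highest level (MRPS10). Each runs from 250 bases before to 50 bases after the annotated start on RefSeq's GRCh38.p14, 5′ to 3′ on the gene's own strand, at chr22:19432295-19432594 (plus strand), chr11:6683291-6683590 (minus), chr21:34073328-34073627 (plus) and chr6:42217812-42218111 (minus). Capitals mark exact matches on either strand to CCGGAAG (an ETS core), AAGATGGCG (YY1), or to the palindromic NRF1 motif, whose letters are those capitalised in the MRPL17 promoter; no match overlaps another in these 4.
MRPL40: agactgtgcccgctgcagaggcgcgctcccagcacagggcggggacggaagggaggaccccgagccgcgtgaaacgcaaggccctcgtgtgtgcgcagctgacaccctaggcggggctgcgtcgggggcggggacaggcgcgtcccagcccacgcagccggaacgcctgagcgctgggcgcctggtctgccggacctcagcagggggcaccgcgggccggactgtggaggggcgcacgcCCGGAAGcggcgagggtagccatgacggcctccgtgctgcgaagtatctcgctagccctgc
MRPL17: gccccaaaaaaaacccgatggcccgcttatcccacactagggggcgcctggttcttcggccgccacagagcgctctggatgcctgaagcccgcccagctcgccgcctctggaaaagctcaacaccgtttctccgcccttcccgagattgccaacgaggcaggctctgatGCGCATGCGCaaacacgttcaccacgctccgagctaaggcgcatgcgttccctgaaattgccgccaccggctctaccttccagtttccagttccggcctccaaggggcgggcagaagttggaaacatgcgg
MRPS6: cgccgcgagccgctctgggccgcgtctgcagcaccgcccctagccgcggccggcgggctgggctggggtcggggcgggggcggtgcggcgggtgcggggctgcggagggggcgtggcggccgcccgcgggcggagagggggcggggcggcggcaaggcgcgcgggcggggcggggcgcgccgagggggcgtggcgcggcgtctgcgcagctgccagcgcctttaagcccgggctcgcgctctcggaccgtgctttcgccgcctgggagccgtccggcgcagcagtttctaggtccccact
MRPS10: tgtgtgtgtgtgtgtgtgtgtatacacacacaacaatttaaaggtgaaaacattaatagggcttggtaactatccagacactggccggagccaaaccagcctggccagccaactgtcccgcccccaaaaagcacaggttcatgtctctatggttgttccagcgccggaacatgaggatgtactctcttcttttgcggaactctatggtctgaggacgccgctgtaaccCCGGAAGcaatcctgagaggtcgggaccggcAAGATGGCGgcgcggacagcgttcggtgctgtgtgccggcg
MRPL40 held 1 ETS match, MRPL17 the NRF1 match, MRPS10 1 ETS and 1 YY1 match, and MRPS6 none of the 3. Of the 77 genes, 68 had at least 1 such window in the RefSeq table. The ETS letters occurred in 28 of the 68 (41.2%), against 16.5% of 15843 protein-coding genes. YY1 letters occurred in 13 (19.1%), against 3.21%, and the NRF1 letters in 1 (1.47%), against 1.99%. Among the genes called lower below, 13 of 25 with a window held the ETS letters and 5 held the YY1 letters, against 15 and 8 of the other 43. The matches describe letters in these windows and do not show that a factor binds there.

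Levels are in FPKM, a fragment count divided by gene length and by library total. The recovered length ran from 582 bases (MRPL41) to 19524 bases (MRPS27), so FPKM ranks between genes depend on it as well as on reads. MRPL42, at 16368 bases, had a mean of 1495.5 reads and 2.35 FPKM, and MRPL41 had 989 reads and 43.9 FPKM. Recovered depth was 35647756 to 41859879 reads per library, and 1 read in a gene of 2 kb is worth at most 0.014 FPKM. The labels do not say whether the 4 libraries of a group came from separate cultures, so p-values reflect only library-to-library spread, which could be technical. In bulk RNA, fewer cells of a type and less RNA per cell cannot be told apart. Of 10 macrophage markers, CD14, CSF1R, FCER1G, TYROBP and SPI1 lay at 133 to 549 FPKM in both groups, but CD68 never exceeded 0.126 FPKM. AIF1 was at 0 FPKM in every library but 3-HPA library 3, where it was at 1.47 FPKM. Of 8 tested, 6 rose with 3-HPA, CD163 fell from 25.2 to 19.8 FPKM and LYZ was not called. Among markers of other cell types, MS4A1, CD79A, KLRD1 and CDH1 never exceeded 0.238 FPKM, while the mesenchymal genes COL1A1 (2.08 to 3.84 FPKM) and PDGFRA (1.22 to 2.09) rose. The part of these shifts in the results below was not tested.

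The genes spanned a wide range of FPKM within the same libraries. How much of it came from recovered gene length or from how reads were assigned between genes was not tested. Of the 77, 25 had a mean of 10 FPKM or more over the 8 libraries, 40 lay between 1 and 10, and 12 lay under 1. MRPS10, a small-subunit protein of bacterial descent, was the highest, at 72.4, 72.5, 75.0 and 71.6 FPKM in LPS libraries 1 to 4 and 72.2, 70.6, 72.8 and 75.3 FPKM with 3-HPA. The 2 groups of MRPS10 overlapped throughout. Its log2 fold change was -0.003 (95% interval -0.055 to 0.049, limma adjusted p = 0.933). MRPL18, MRPL41, MRPL44 and MRPL52, all of the large subunit, came next, with means of 49.5, 43.9, 42.9 and 31.6 FPKM. The means of MRPL41 and MRPL44 lie closer than the spread between libraries of MRPL41, which was 3.57 FPKM (SD, n = 4) under LPS and 5.10 FPKM with 3-HPA.

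**Figure D1:**
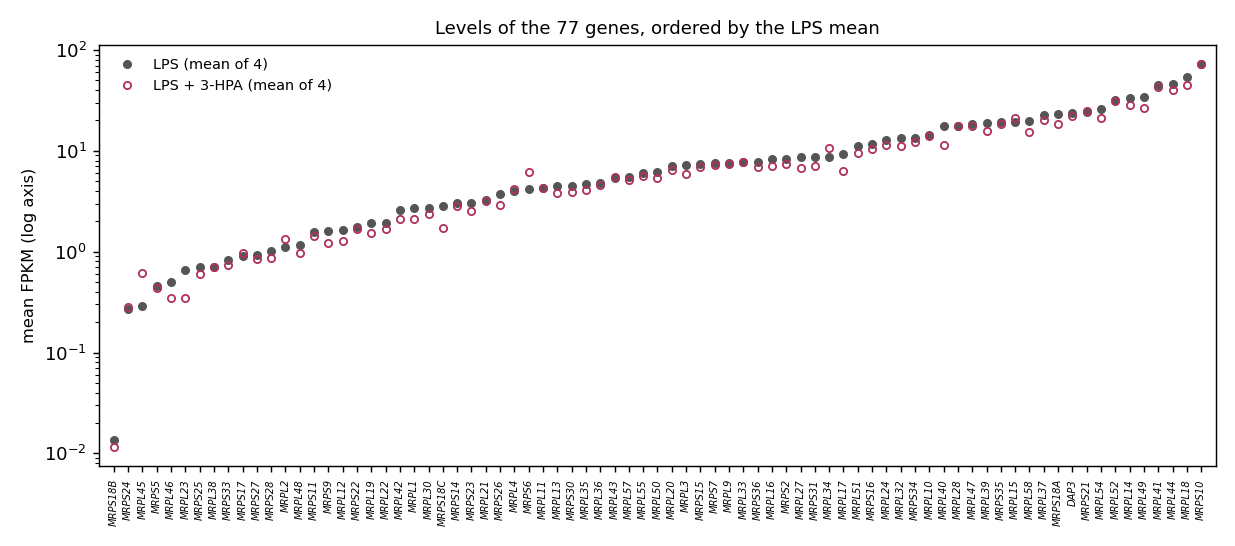
Mean FPKM on a log axis for each of the 77 genes, ordered from left to right by the LPS mean; filled grey points are LPS and open red points LPS with 3-HPA, each the mean of 4 libraries. MRPS18B stands alone at the bottom, MRPS10 at the top shows the same level in both groups, and MRPL40, MRPL17 and MRPS18C show the open point clearly below the filled one while MRPS6 shows it above.

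A gene entered the test when its FPKM was at least 0.5 in at least 4 of the 8 libraries, and 71 of the 77 did. The 6 that did not were MRPL23, MRPL45, MRPL46, MRPS5, MRPS18B and MRPS24. MRPS18B, a small-subunit protein of the S18 family, had an estimated 0 to 4 reads per library, and its mean of 0.0126 FPKM was the lowest of all 77. MRPS24 lay at 0.272 ± 0.018 FPKM under LPS and 0.281 ± 0.039 with 3-HPA (SD, n = 4 each). MRPS5 lay at 0.461 ± 0.056 and 0.437 ± 0.035 FPKM, again with overlapping groups. MRPL46, a large-subunit protein, had 0.571, 0.488, 0.479 and 0.474 FPKM under LPS and 0.387, 0.375, 0.302 and 0.327 FPKM with 3-HPA, without overlap. MRPL45, a large-subunit protein at the exit of the nascent chain tunnel, had 0.250, 0.341, 0.305 and 0.266 FPKM under LPS and 0.625, 1.16, 0.379 and 0.299 FPKM with 3-HPA. Its groups overlapped, and library 2 of the 3-HPA group was the highest. MRPL23, another protein of the exit site, had 0.108, 1.40, 0.149 and 0.988 FPKM under LPS and 0.0537, 0.117, 1.15 and 0.0541 FPKM with 3-HPA. There, 3 libraries, 2 with LPS and 1 with 3-HPA, thus lay near 1 FPKM and the other 5 near 0.1 FPKM or below, and the split does not follow the treatment.

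With 3-HPA, 27 of the 71 genes tested fell and 1 rose, by limma on log2(FPKM + 1) with Benjamini-Hochberg adjustment over all 12499 genes tested. Among all genes tested, 28.0% were called lower and 15.7% higher, against 38.0% and 1.41% of the mitoribosomal genes. The falls were small: the called genes fell by 6.34% to 38.5% in mean FPKM, with a median of 17.9%, and 8 of them by at least 20%. The fold change was negative for 60 of the 71 and positive for 11, and its median was -0.118, against -0.047 for all genes tested. The log2(FPKM + 1) scale understates the change of genes near or below 1 FPKM. Adding all 77 genes gave 848, 843, 853 and 853 FPKM under LPS and 766, 760, 767 and 761 FPKM with 3-HPA, so that every 3-HPA library lay below every LPS library. The summed level was 10.1% lower as deposited and 6.16% lower after trimmed-mean (TMM) scaling.

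The groups of 25 genes did not overlap with 3-HPA lower, and those of 2 did not overlap with 3-HPA higher, where 26.9% and 15.3% of all genes tested behaved so. Of the 27 called falls, 24 had groups that did not overlap, and MRPL3, MRPL35 and MRPS16 had overlapping groups. The 2 genes that did not overlap and were not called were MRPS25 and MRPL2, both chosen for mention after their values were seen. MRPS25, a small-subunit protein, had 0.698 ± 0.022 against 0.602 ± 0.045 FPKM. It was called lower by limma voom on recovered reads (log2 fold change -0.216, adjusted p = 0.0329) and by limma without trend (adjusted p = 0.0441). MRPL2, a large-subunit protein near the peptidyl transferase centre, had a log2 fold change of 0.15 (adjusted p = 0.0822). It was called higher under TMM scaling (adjusted p = 0.0415) and quantile normalisation (0.0421). Falls made up a larger share of the genes at high FPKM, both here and in the whole table. At a mean of 10 FPKM or more, 14 of 25 mitoribosomal genes were called lower against 39.7% of all genes at that level, and under 10 FPKM it was 13 of 46 against 23.3%.

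**Figure D2:**
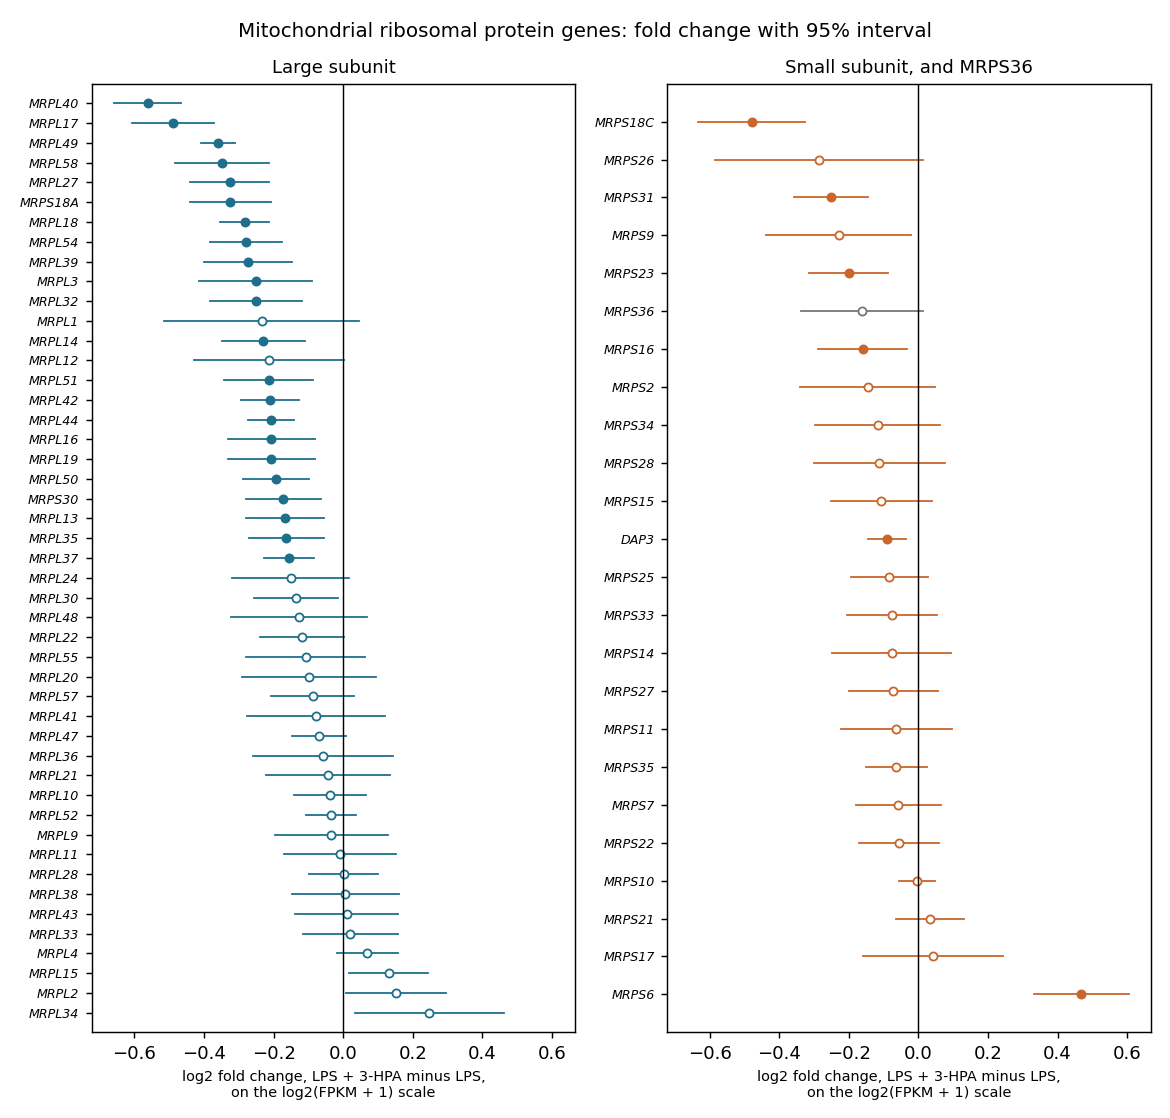
Log2 fold change (LPS with 3-HPA minus LPS, on the log2(FPKM + 1) scale) of the 71 genes tested with its 95% interval, for the large subunit on the left and the small subunit with MRPS36 (grey) on the right; filled points have an adjusted p under 0.05. Most points lie left of 0, from MRPL40 at -0.56 upward, and MRPS6 at 0.47 is the single filled point to the right.

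The large subunit, which holds the peptidyl transferase centre, had 22 of its 47 tested genes called lower and none higher at the deposited scale, with a median log2 fold change of -0.155. These were 46.8% and 0%, beside 28.0% and 15.7% of all genes tested. At 10 FPKM or more 12 of 19 were called lower, and under 10 FPKM 10 of 28, beside 39.7% and 23.3% of all genes. MRPL40, a mitochondria-specific protein, had 17.8, 17.4, 16.5 and 18.2 FPKM under LPS and 11.3, 12.3, 10.8 and 11.8 FPKM with 3-HPA. The lowest LPS library lay well above the highest 3-HPA library, and the log2 fold change was -0.56 ± 0.043 (SE, limma adjusted p = 7.75e-06). MRPL17, a protein of bacterial descent, had 8.61, 8.62, 9.98 and 9.73 FPKM under LPS and 6.59, 5.99, 6.16 and 6.39 FPKM with 3-HPA. Its groups did not overlap either, and its log2 fold change was -0.49 ± 0.052 (adjusted p = 7.3e-05). Among the called genes of the large subunit these were the largest falls, at 34.1% and 32.0% of the LPS mean.

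MRPL49, a mitochondria-specific protein and one of the more abundant of the family, had 34.8, 33.7, 34.1 and 34.6 FPKM under LPS and 26.6, 27.3, 26.2 and 25.9 FPKM with 3-HPA. The libraries of each group lay close together, and the log2 fold change of -0.36 ± 0.021 had the smallest p of the family (adjusted p = 1.52e-06). MRPL58, a peptidyl-tRNA hydrolase built into the large subunit that can release chains from stalled ribosomes, had 21.6, 17.6, 19.7 and 20.8 FPKM under LPS and 14.5, 15.4, 15.7 and 16.0 FPKM with 3-HPA. The LPS libraries spread more widely than the 3-HPA libraries but stayed above them, and the log2 fold change was -0.35 ± 0.059 (adjusted p = 0.0013). MRPL27, whose bacterial counterpart reaches into the peptidyl transferase centre, had 8.47, 8.98, 8.61 and 8.61 FPKM under LPS and 6.35, 7.47, 6.24 and 6.85 FPKM with 3-HPA. It showed no overlap and a log2 fold change of -0.33 ± 0.050 (adjusted p = 0.000718). MRPS18A, which sits in the large subunit in spite of its name, had 25.2, 21.3, 23.2 and 23.8 FPKM under LPS and 19.4, 18.2, 17.3 and 18.9 FPKM with 3-HPA. Here too all LPS libraries were higher, with a log2 fold change of -0.32 ± 0.051 (adjusted p = 0.000871).

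**Figure D3:**
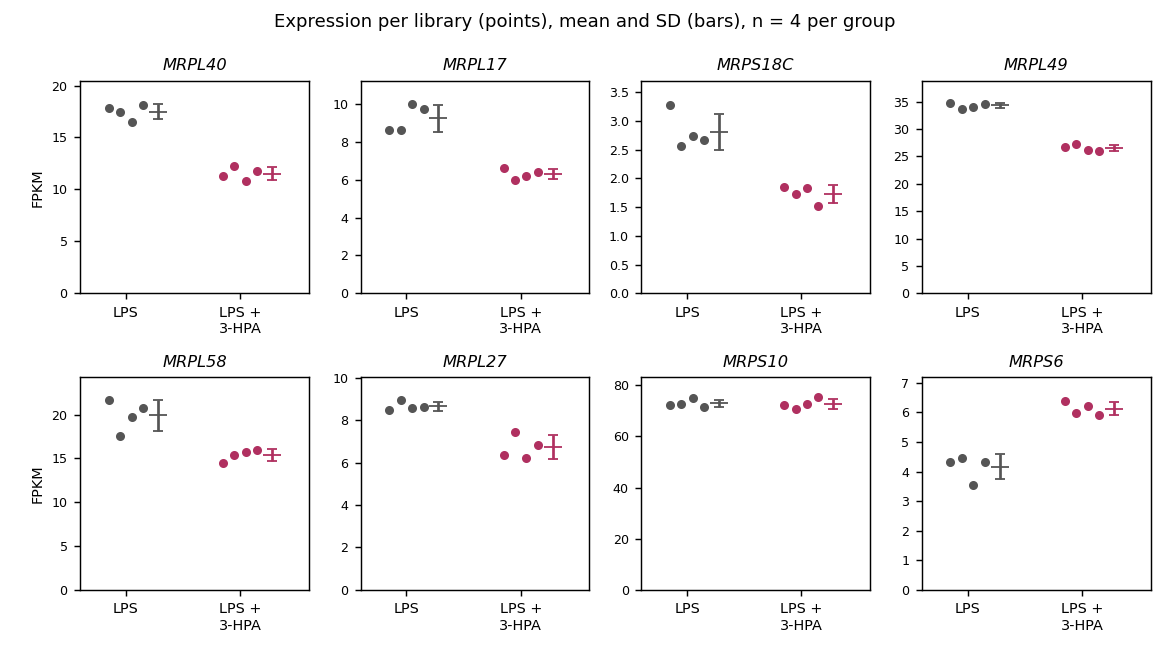
FPKM in each library (points), with the mean and SD of each group beside them (n = 4), for the 6 tested genes with the lowest fold changes on the log2(FPKM + 1) scale, for MRPS10 and for MRPS6; each axis starts at 0. In the 6 falling genes every 3-HPA point lies below every LPS point, in MRPS10 the groups coincide, and in MRPS6 every 3-HPA point lies above.

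Other large-subunit genes fell by smaller steps. MRPL18, related to the bacterial protein that binds 5S ribosomal RNA, had 52.1, 53.9, 56.8 and 55.0 FPKM under LPS and 45.1, 42.8, 44.5 and 46.0 FPKM with 3-HPA, without overlap (log2 fold change -0.28, adjusted p = 7.99e-05). MRPL44, an RNase III-like protein, went from 46.1 ± 1.41 to 39.7 ± 1.27 FPKM (SD, n = 4 each, adjusted p = 0.000396). MRPL42 (2.59 ± 0.054 to 2.11 ± 0.070 FPKM) and MRPL37 (22.5 ± 0.951 to 20.1 ± 0.404 FPKM), both mitochondria-specific, also fell without overlap. MRPL54, MRPL39, MRPL32 and MRPL14 had log2 fold changes of -0.28, -0.27, -0.25 and -0.23. MRPL32 is known as a protein that the inner-membrane m-AAA protease must process before it is assembled, and MRPL14 is the contact of the assembly factor MALSU1. MRPL51, MRPL16, MRPL19 and MRPL50 had log2 fold changes of -0.21, -0.21, -0.21 and -0.19 with adjusted p between 0.00532 and 0.0141. MRPL3, MRPS30 (a large-subunit protein by position), MRPL13 and MRPL35 were nearest the threshold, with log2 fold changes of -0.25, -0.17, -0.17 and -0.16 and adjusted p of 0.0191, 0.0163, 0.0227 and 0.0223. The call of MRPL3 was lost without library 3 of either group (adjusted p = 0.0518 and 0.0509), and that of MRPL13 without LPS library 1 or 3 or 3-HPA library 4 (0.0577 to 0.0604). MRPL35 lost its call on leaving out any 1 of LPS libraries 1, 2 and 4 and 3-HPA libraries 2 and 3, with an adjusted p from 0.0521 to 0.0612.

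By origin, 12 of 19 tested mitochondria-specific large-subunit genes were called lower (median -0.193), against 10 of 27 with a bacterial homologue (median -0.136), where all genes tested gave 39.7% at 10 FPKM or more and 23.3% below. The mitochondria-specific genes had the higher FPKM, with a median of 17.3 FPKM against 6.78 FPKM, and whether the shares differ was not tested. The 25 large-subunit genes that were not called include MRPL41 and MRPL52, both at high FPKM. MRPL41 had 41.0, 44.1, 49.7 and 45.4 FPKM under LPS and 44.8, 35.7, 42.9 and 47.6 FPKM with 3-HPA, with overlapping groups (log2 fold change -0.08, 95% interval -0.276 to 0.120). MRPL52 had means of 32.0 ± 0.838 and 31.2 ± 1.27 FPKM, and its interval of -0.106 to 0.038 was narrower. Over all 43 uncalled genes, MRPS36 included, the median 95% interval reached 0.153 to either side of the estimate, so changes of the size seen in MRPL37 could have been missed in many of them.

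The small subunit, which binds the messenger RNA, had 5 of its 23 tested genes called lower and 1 higher, with a median log2 fold change of -0.084. Its share of falls, 21.7%, lay below the 28.0% of all genes tested. At 10 FPKM or more 2 of 6 were called lower, and under 10 FPKM 3 of 17, beside 39.7% and 23.3% of all genes. Whether these shares differ was not tested. MRPS18C, of bacterial descent, had 3.27, 2.56, 2.73 and 2.67 FPKM under LPS and 1.84, 1.73, 1.83 and 1.52 FPKM with 3-HPA. This drop of 38.5% in mean FPKM was the largest among the called genes, the groups did not overlap, and the log2 fold change was -0.48 ± 0.068 (adjusted p = 0.000443). MRPS31 and MRPS23, both mitochondria-specific, went from 8.69 ± 0.564 to 7.13 ± 0.279 and from 3.03 ± 0.089 to 2.51 ± 0.218 FPKM (adjusted p = 0.00222 and 0.0105). DAP3, a GTP-binding small-subunit protein first described as a mediator of cell death, had 23.5, 24.1, 23.4 and 24.4 FPKM under LPS and 23.0, 22.4, 22.0 and 21.9 FPKM with 3-HPA. Its groups were adjacent but did not overlap, and its fall of 6.34% (log2 fold change -0.09 ± 0.023, adjusted p = 0.0124) was the smallest called. MRPS16 was the weakest call: it had 11.9, 11.7, 11.8 and 11.7 FPKM under LPS and 9.97, 9.91, 12.1 and 9.99 FPKM with 3-HPA. Library 3 of the 3-HPA group lay above all LPS libraries, and the adjusted p was 0.047. Leaving out any of the other 7 libraries raised that p to between 0.0819 and 0.111, and without library 3 itself the log2 fold change was -0.23 (adjusted p = 0.000131).

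MRPS6, a small-subunit protein of bacterial descent, was the only gene of the 71 called higher at the deposited scale. It had 4.34, 4.47, 3.54 and 4.32 FPKM under LPS and 6.39, 5.99, 6.22 and 5.90 FPKM with 3-HPA. All 3-HPA libraries lay above all LPS libraries, and the log2 fold change was 0.47 ± 0.060 (adjusted p = 0.000239), keeping its call in each of the alternatives run. MRPS6 lies on chromosome 21 (34073224 to 34143034, plus strand, GENCODE 29 on GRCh38) and spans SLC5A3, the sodium/myo-inositol cotransporter gene, on the same strand, and 9.6% of its exonic bases are shared with other genes, SLC5A3 among them. SLC5A3 rose from 3.84 ± 0.270 to 6.75 ± 0.399 FPKM (SD, n = 4 each), a log2 fold change of 0.68 (adjusted p = 8.44e-06). SLC5A3 starts at base 34073570 in GENCODE 29, inside the window shown above as the promoter of MRPS6. Which of the 2 transcripts the shared bases came from was not tested.

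Of the called falls, 7 also share at least 5% of their exonic bases with a neighbour in GENCODE 29, and the labels do not say whether the counting used strand. These are MRPS18A (47.0%, with RSPH9), MRPS18C (40.2%, with ABRAXAS1), MRPL51 (31.3%, with NCAPD2), MRPS16 (14.9%), MRPL44 (12.9%), MRPL49 (12.2%) and MRPL37 (6.8%), and their values are less certain for it. Across all 77 genes, 32 share as much, among them the untested MRPS24 (23.2%, with URGCP-MRPS24), MRPL46 (11.3%) and MRPS5 (8.2%). Whether the sharing affected their low levels was not tested. Of the tested genes, 16 have a tested neighbour within 1000 bases on the opposite strand. Among the 7 of these that were called lower, the neighbour was called lower in 4, higher in 1 and not called in 2. Of all genes tested, 28.0% were called lower and 15.7% higher. The starts of MRPL14 and TMEM63B, MRPL49 and FAU, and MRPL51 and NCAPD2 do not point away from each other. FAU and NCAPD2 also share exonic bases with MRPL49 and MRPL51. The closest of these 7 pairs was MRPL18 and TCP1, a chaperonin subunit 63 bases away, which had a log2 fold change of -0.10 (adjusted p = 0.0104), smaller than that of MRPL18. The gene that rose beside a falling one was NCAPD2, a condensin subunit (log2 fold change 0.17, adjusted p = 0.00565), beside MRPL51.

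A further 4 proteins of the mitoribosome have names outside the family stem. CHCHD1 (9.54 ± 0.684 to 8.26 ± 0.348 FPKM, adjusted p = 0.014) and PTCD3 (4.59 ± 0.306 to 3.79 ± 0.379 FPKM, adjusted p = 0.0198), both of the small subunit, fell. AURKAIP1, of the small subunit, and GADD45GIP1, of the large, had log2 fold changes of 0.03 and 0.13 and were not called. PTCD3 lost its call without LPS library 1 (adjusted p = 0.0513), under TMM scaling (0.0616) and quantile normalisation (0.0548) and with no filter (0.0531), and CHCHD1 lost its call under TMM scaling (adjusted p = 0.0585). GADD45GIP1 was called higher without 3-HPA library 2 (log2 fold change 0.22, adjusted p = 0.0162). Of 26 tested genes for mitoribosome assembly and ribosomal RNA modification, 9 were called lower (34.6%, beside 28.0% of all genes) and none higher at the deposited scale, with a median of -0.082, and 6 were called lower under TMM or quantile scaling. They included C1QBP, a matrix protein (12.6 ± 0.367 to 9.95 ± 0.432 FPKM, adjusted p = 9.13e-05), FASTKD2, an RNA-binding assembly factor of the large subunit (2.31 ± 0.087 to 1.66 ± 0.091, adjusted p = 0.00038), and the GTPase GTPBP10 and the methyltransferase partner MTERF4 (log2 fold changes -0.23 and -0.21). Of 14 tested mitochondrial translation factors, 4 were called lower (28.6%, near the 28.0% of all genes) and none higher, with a median of -0.073. These were GUF1, a back-translocating elongation factor (-0.32), the release factor MTRF1 (-0.29), the rescue factor MTRFR (-0.28) and the ribosome recycling factor MRRF (-0.20). The elongation factor TUFM (30.8 ± 0.879 against 31.1 ± 1.69 FPKM) and the membrane insertase OXA1L (29.8 ± 0.858 against 29.9 ± 1.43), both chosen for mention after their values were seen, differed by less than the spread between libraries.

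The RNAs made inside mitochondria went the other way. All 13 messenger RNAs that the mitoribosome translates were called higher with 3-HPA, with a median log2 fold change of 0.653, and so were the 2 ribosomal RNAs. MT-RNR1, the RNA of the small subunit, rose from 150 ± 4.05 to 218 ± 23.3 FPKM, and MT-RNR2, that of the large subunit, from 814 ± 12.0 to 1149 ± 33.6 FPKM. Mitochondrial ribosomal RNAs depend on the RNA selection step of the library kit, which the labels do not give, so their levels here need not reflect abundance in the cell. LRPPRC and SLIRP, nuclear-encoded partners that stabilise mitochondrial messenger RNAs, fell by 0.19 and 0.26 on the log2 scale (adjusted p = 0.00332 and 0.0376). SLIRP lost its call on leaving out any 1 of LPS libraries 2, 3 and 4 and 3-HPA libraries 1, 3 and 4, with an adjusted p from 0.0534 to 0.0919, and also under TMM scaling (0.0947), quantile normalisation (0.0778) and no filter (0.101). Genes of the mitochondrial genome took 2.94% to 3.08% of all FPKM under LPS and 4.37% to 4.58% with 3-HPA. Of 81 tested genes for proteins of the cytosolic ribosome, 50 were called lower (61.7%), 2 higher and 29 not called, with a median of -0.112, beside 39.7% called lower among all genes of 10 FPKM or more. Whether their share differs from that of the mitoribosome was not tested. Their median level of 57.6 FPKM was higher than the 7.19 FPKM of the mitoribosomal genes, and near-identical pseudogene copies make their counts uncertain. Mitoribosomal genes have named pseudogenes too, at most 8 (MRPS21), with 5 for MRPL42, 3 for MRPS18C, 1 for MRPL40 and 0 for MRPL17. The effect of these pseudogenes on the mitoribosomal counts was not tested.

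**Figure D4:**
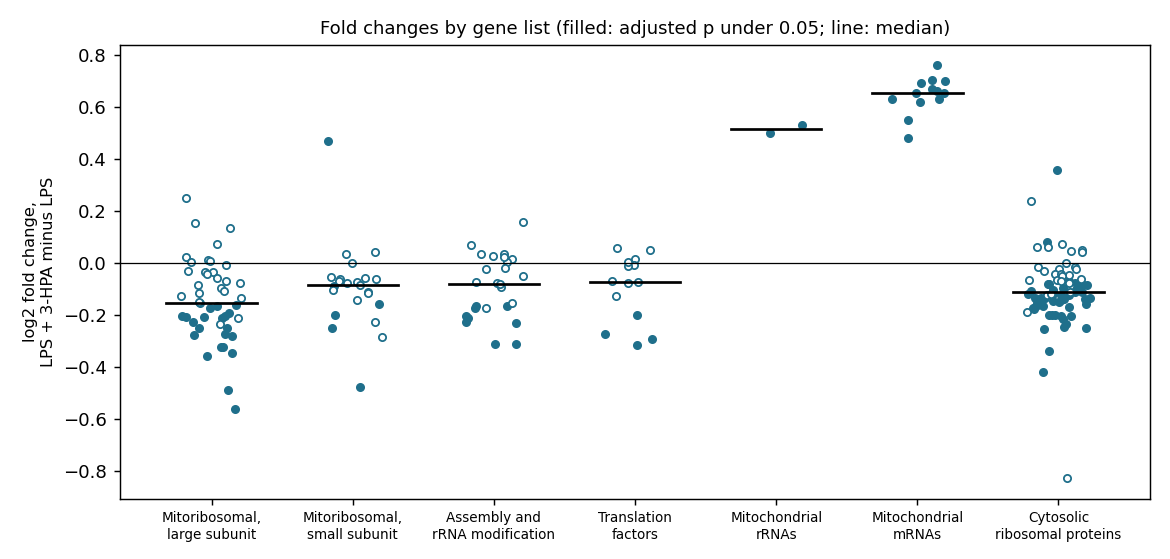
Log2 fold change (LPS with 3-HPA minus LPS) of each tested gene, grouped by list, with filled points for an adjusted p under 0.05 and a line at each list's median; points are spread sideways for legibility. The mitochondrial ribosomal and messenger RNAs lie at 0.48 to 0.76, apart from the nuclear-encoded lists plotted, whose medians lie between -0.155 and -0.073.

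How many of the genes were called depended on how the libraries were scaled. With TMM scaling 19 of the 71 were called lower and 5 higher, with quantile normalisation 22 and 5, and with FPKM totals made equal 30 and 1. The same rules called 20.2% and 20.7%, 22.0% and 19.0%, and 33.9% and 13.5% of all genes lower and higher. Limma voom on the recovered reads called 28 lower and 3 higher, against 3744 and 2032 of 12491 genes. Against a threshold of 1.2-fold (limma treat), MRPL40, MRPL17 and MRPL49 were called lower and MRPS6 higher, against 4.41% and 4.28% of all genes. The median of all genes tested lay at -0.003 under TMM scaling and -0.075 with equal totals, against medians of the mitoribosomal genes of -0.083 and -0.146. On the deposited scale and with TMM, quantile and equal-total scaling, the family's median stayed 0.071 to 0.080 below that of all genes. With voom the 2 medians lay further apart, at -0.179 for the family and -0.066 for all genes. All 19 falls called under TMM scaling were among the 27 called as deposited. The 8 genes that lost their call there were MRPL3, MRPL13, MRPL16, MRPL35, MRPL51, MRPS16, MRPS30 and DAP3, and the rises gained were MRPL2, MRPL4, MRPL15 and MRPL34, all of the large subunit. The cytosolic ribosomal proteins went from 50 called lower to 24 under that scaling. MRPL40, MRPL17, MRPL49 and MRPS18C kept a log2 fold change of at most -0.30 in each alternative run, and MRPS6 one of at least 0.41.

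**Figure D5:**
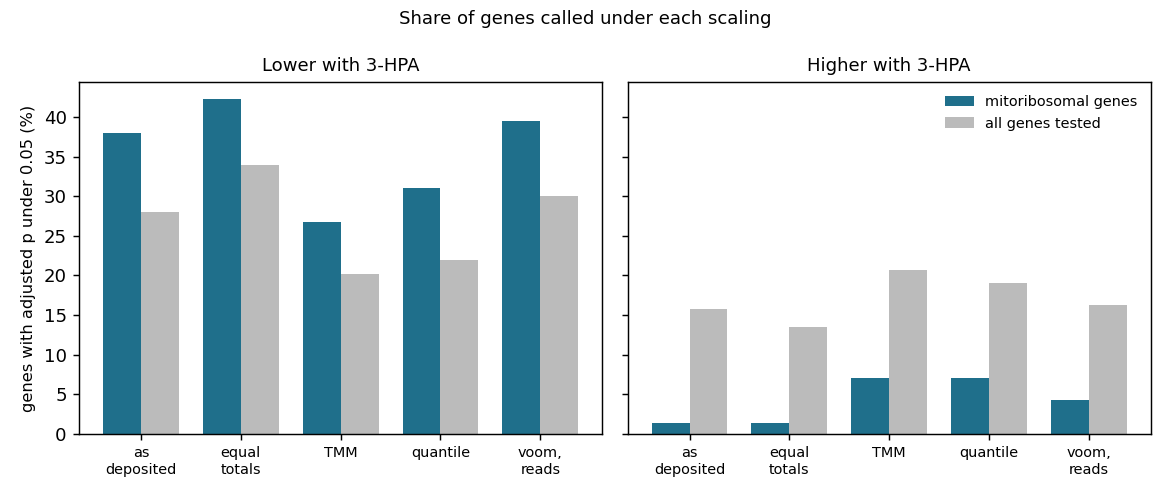
Percentage of genes called lower (left) and higher (right) with 3-HPA at an adjusted p under 0.05, for the mitoribosomal genes (71 tested) and for all genes tested, under the deposited scale, 3 other scalings and limma voom on the recovered reads. Under each of the 5 the mitoribosomal genes have the larger share of falls and the smaller share of rises, but the gap in falls is narrowest with TMM scaling (19 of 71 genes against 20.2%).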

How the data were processed

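Total RNA was extracted with TRIzol and made into libraries with a VAHTS Universal V6 kit, per the labels' protocols. Per the submitters' processing notes the tools were HISAT2 2.1.0, fastp 0.22.0 and featureCounts, with the GRCh38 build. The authors deposited FPKM values in 1 table of 30233 Ensembl genes by 8 libraries, per the file headers and labels, and neither strand setting nor annotation release is given in the sources used here. Symbols came from the reference's gene names (30221 matched), and positions from GENCODE 29. The members and gene lists were chosen with earlier results of these data known.

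Whole reads were recovered from the deposited FPKM values for depth: 99.94% of genes gave whole numbers within 0.01 in every library. At their annotated length, 13722 genes did so. For another 16492 the length was itself searched for, and the shortest that gave whole numbers was kept. The read numbers of such genes may be too low where reads are few. Genes reaching 0.5 FPKM in 4 or more libraries (12499) were tested on log2(FPKM + 1) by limma 3.58.1 in R 4.3.3, two-sided and with a mean-variance trend; p-values were adjusted by Benjamini-Hochberg across the whole tested table, and 0.05 was the threshold. No covariate was used and no library was left out. Precision is limited by 4 libraries per group, and intervals cover neither PCR duplicates nor alignment errors.

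Genes were named by rule: all members called, the 5 highest and 5 lowest by mean FPKM, members under the filter, DAP3, the called genes of each list with the smallest p (at most 4), and the mitoribosomal proteins outside the stem; others are said to be chosen after their values were seen. Alternatives were equal totals, TMM and quantile scaling, pseudocounts of 0.5 and 0.1, filtering at 1 FPKM or not at all, a fit without trend, weighting of libraries, a replicate block, voom on recovered reads, treat against a 1.2-fold change, and leaving out each library. RefSeq promoter windows were searched on both strands. Tables and plots were made with pandas 2.3.3, numpy 2.4.6 and matplotlib 3.10.9 in Python 3.11.15.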

Additional observations from a re-analysis of the deposited data

Results flagged for a closer look

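In 8 of the 74 groups of 4 libraries examined (37 genes in each of 2 treatments), 1 library stood far from the other 3. The rule used flags about 1 in 20 groups by chance only if values are independent and normally distributed. These 37 genes were picked by call or by FPKM level and include near-zero reads (MRPS18B), so that rate need not apply. Whether 8 flagged groups are more than chance gives was not tested. In LPS library 3, MRPS31 was low at 7.85 FPKM (the others 8.89 to 9.10), MRPS6 was low at 3.54 (4.32 to 4.47) and MRPL50 was high at 6.52 (6.11 to 6.15). In LPS library 1, MRPS23 was low at 2.90 FPKM (3.07 to 3.09) and MRPL46 high at 0.571 (0.474 to 0.488). MRPS18B had 0.0544 FPKM in LPS library 4 and 0 in the other 3, which is a matter of an estimated 4 reads. In 3-HPA library 3, MRPS16 was high at 12.1 FPKM (9.91 to 9.99) and MRPL23 high at 1.15 FPKM (0.0537 to 0.117). MRPL23 also split the LPS libraries, as described above.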

How the results depend on the processing

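Of the 28 genes called, 20 kept their call in every alternative except treat, which asks for more than a 1.2-fold change and left 3 falls (MRPL40, MRPL17, MRPL49) and 1 rise, with 551 falls and 535 rises among all genes. The count of rises, 1 as deposited, was 5 with TMM scaling, 5 with quantile normalisation and 3 with voom. The median log2 fold change of the genes was -0.179 with voom on recovered reads, which adds no pseudocount of 1 FPKM. Leaving out each library in turn gave 24 to 28 falls, 1 to 3 rises and medians of -0.14 to -0.109; 2 rises were called without LPS library 3 or 3-HPA library 2 and 3 without 3-HPA library 4. Of the 71 genes, 60 were negative as deposited, 54 with TMM scaling, 55 with quantile normalisation and 65 with equal totals. Among the genes named by rule, those that changed sign were not called: MRPL52 was at 0.025 with TMM scaling, MRPS10 at 0.058 with TMM scaling and 0.006 with quantile normalisation, and AURKAIP1 at -0.002 with equal totals. On leaving out each library, MRPS10 ranged from -0.019 to 0.011, MRPL41 from -0.132 to 0.004 (the latter without 3-HPA library 2) and AURKAIP1 from -0.009 to 0.064; the cause was not tested. Libraries of the same number showed little shared deviation (r from -0.023 to 0.089 over 4 pairs, and 2 of 8 libraries correlated best with their own number). Such weak correlations cannot tell whether libraries of the same number were prepared together. The replicate block gave 28 falls and 1 rise, with 26 falls shared, and a median of -0.118. MRPS18B, at an estimated 0 to 4 reads per library, had the least certain level, and why its level was so low was not tested.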
